A study of Mus musculus with 51 samples.

Results

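The regions described here were promoters in chromatin state 1 of mouse male germ cells at which neither DMC1 nor HELLS was called. They were taken from the table of H3K4me3 regions by overlap with start sites, a chromatin map and peak lists. An autosomal region had to overlap the stretch from 1000 bp before to 1000 bp after a GENCODE transcription start site (TSS) on mm10. Its midpoint had to lie in state 1 of the deposited 11-state chromHMM map. It could overlap no peak of the DMC1 lists or of the HELLS list. The map came from histone libraries and the lists from peaks of signal, so this rule selects on signal as well as position. This rule found 6232 of 78960 regions, which were 26.2% of the 23784 autosomal promoter regions and 47.0% of the 13262 autosomal promoter regions in state 1. They are called DMC1-free promoters below, a name that holds for these peak lists only. The lists hold positions without scores or depth, so a promoter outside them may still take breaks below the calling limit. Among the other state 1 promoters, 5359 had a DMC1 peak only in the Hells CKO list, 394 in both lists and 202 only in the Hells het list, and 1075 had a HELLS peak. A further 7536 promoter regions lay outside state 1 and were likewise free of DMC1 and HELLS.

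Meiotic recombination begins with programmed double-strand breaks made by SPO11. In mice PRDM9 binds DNA at hotspots and methylates lysine 4 of histone H3 there, which steers breaks away from promoters, and in mice without PRDM9 breaks are found at promoters and other sites that carry H3K4me3. HELLS is a chromatin remodeller of the SNF2 family that acts with PRDM9, and DMC1 is the meiotic strand-exchange protein that coats the single-stranded DNA at a break, so that DMC1 ChIP-seq maps breaks. Trimethylated H3K4 marks the start sites of active genes, H3K9ac accompanies active promoters, and ATAC-seq reads open chromatin through the insertions of a transposase.

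The series compared chromatin of mice that differ in Hells, Prdm9 or Spo11. The groups used were Hells CKO (a conditional knockout, whose Cre driver is not given in the sources used here), with 3 H3K4me3 and 3 ATAC libraries; Hells wt, with 1 and 2; B6-Prdm9CAST-KI (KI below), a C57BL/6J line with the CAST allele of Prdm9, with 2 H3K9ac and 2 ATAC libraries; Spo11/Spo11, with 2 H3K4me3 libraries and 1 of H3K9ac; Spo11/+, with 1 of H3K4me3; and C57BL/6J (B6), with 3 of H3K9ac and 2 of ATAC. The (B6xCAST) F1 hybrid, in which reads were assigned to the CAST or the B6 allele, gave 2 ATAC libraries and 1 of H3K9ac. All of these came from enriched male germ cells at 12 to 14 days post-partum, bulk preparations in which more cells of a type and more signal per cell cannot be told apart. The DMC1 lists came from whole testis of Hells CKO and Hells het mice 6 weeks old, and the HELLS list from KI testis at 12 to 14 days, so the lists and the chromatin differ in age or tissue. The Hells wt, Spo11/+ and Spo11/Spo11 libraries carry no Hells change by their labels and are called HELLS-competent together. No label says that libraries of a group came from separate animals, so each p-value reflects variation among these libraries, some or all of which may be technical.

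Levels are given as CPM, the read count of a region scaled to a common library total. The counts summed to 13321006 to 42007820 per H3K4me3 library, 13195275 to 30233934 per H3K9ac library, 6416704 to 11352108 per ATAC library of the Hells table and 27952728 to 34572929 of the KI table. The F1 totals per allele and library were 3125377 to 5003968. Hells CKO replicate 1 stood apart from the other H3K4me3 libraries of its group, and B6 replicate 2 from the other H3K9ac libraries of its own. The 2 B6 ATAC libraries also differed more from each other than the 2 of KI. Their chi-square per degree of freedom, set against counting error, was 13.3, against 2.91 in KI. In the DMC1-free promoters the median SD of log2 CPM within a group was 0.23 for H3K4me3 in Hells CKO and 0.065 in Spo11/Spo11, 0.14 for H3K9ac in KI and 0.22 in B6, 0.20 for ATAC in Hells CKO and 0.15 in Hells wt, and 0.084 for ATAC in KI and 0.17 in B6.

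A set of 5 promoters is shown first as sequence, since it spans the range from large CpG-rich promoters of housekeeping genes to a promoter nearly free of CpG. Each is 300 bases, from 250 before to 50 after a start site in RefSeq (GRCm38.p6), printed 5′ to 3′ on the strand of the gene. Capitals mark matches, on either strand, to 4 of the 11 motifs searched: GGGCGG, bound by SP and KLF factors, CCAAT, bound by NFY, GCGCATGC, bound by NRF1, and AAGATGGCG, bound by YY1. The first belongs to the region of the ribosomal protein gene Rpl18, for which the table holds the divergent start of the sphingosine kinase gene Sphk2.
Sphk2 (chr7:45715158-45715457, minus strand, region of Rpl18): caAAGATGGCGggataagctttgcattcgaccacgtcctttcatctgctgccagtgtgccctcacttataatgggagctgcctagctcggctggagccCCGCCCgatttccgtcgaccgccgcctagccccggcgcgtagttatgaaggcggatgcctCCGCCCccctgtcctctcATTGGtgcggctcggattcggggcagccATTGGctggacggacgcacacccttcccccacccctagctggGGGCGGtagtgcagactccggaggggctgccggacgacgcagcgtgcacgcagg
Psma7 (chr2:180042415-180042714, minus strand, a proteasome subunit): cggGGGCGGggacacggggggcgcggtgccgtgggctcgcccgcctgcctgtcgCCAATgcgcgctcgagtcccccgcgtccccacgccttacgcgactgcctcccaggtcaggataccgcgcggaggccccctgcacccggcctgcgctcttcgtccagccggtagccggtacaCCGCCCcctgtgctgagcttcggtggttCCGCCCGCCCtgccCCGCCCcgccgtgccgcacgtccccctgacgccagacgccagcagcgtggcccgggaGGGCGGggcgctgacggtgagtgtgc
Smc1b (chr15:85131908-85132207, minus strand, the meiotic cohesin subunit): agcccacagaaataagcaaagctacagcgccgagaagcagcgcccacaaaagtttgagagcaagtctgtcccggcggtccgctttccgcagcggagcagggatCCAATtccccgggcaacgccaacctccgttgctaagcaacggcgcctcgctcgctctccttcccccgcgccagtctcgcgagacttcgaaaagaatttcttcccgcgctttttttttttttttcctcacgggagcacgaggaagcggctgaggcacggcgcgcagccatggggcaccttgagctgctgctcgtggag
Hsd17b3 (chr13:64089152-64089451, minus strand, highest-ranked among the promoters higher in Hells CKO): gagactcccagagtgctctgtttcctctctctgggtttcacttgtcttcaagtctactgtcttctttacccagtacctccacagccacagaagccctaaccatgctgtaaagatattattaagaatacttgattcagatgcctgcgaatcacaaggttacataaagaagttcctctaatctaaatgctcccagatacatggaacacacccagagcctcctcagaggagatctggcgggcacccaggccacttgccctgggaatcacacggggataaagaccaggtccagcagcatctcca
A930027H12Rik (chr15:87243297-87243596, plus strand, highest-ranked among those lower in Hells CKO): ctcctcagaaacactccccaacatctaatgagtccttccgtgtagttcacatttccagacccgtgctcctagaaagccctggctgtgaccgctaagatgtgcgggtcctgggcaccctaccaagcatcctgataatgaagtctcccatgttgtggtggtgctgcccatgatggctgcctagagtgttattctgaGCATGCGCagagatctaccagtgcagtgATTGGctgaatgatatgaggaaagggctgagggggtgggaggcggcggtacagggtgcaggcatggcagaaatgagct
The Sphk2 sequence held 27 CpG, 3 SP/KLF matches, 2 NFY matches and 1 YY1 match, and the Psma7 sequence 41 CpG with 6 SP/KLF matches and 1 NFY match. The Smc1b sequence held 29 CpG and 1 NFY match. The Hsd17b3 sequence held 3 CpG and none of the motifs searched, and the A930027H12Rik sequence 7 CpG with 1 NFY and 1 NRF1 match.

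A RefSeq promoter sequence was found for 3692 of the DMC1-free promoters. Of these, 57.9% held the SP/KLF letters, against 66.6% of the 3989 promoters with DMC1 in the Hells CKO list alone and 35.6% of all 32817 promoters of the table. The letters CCGGAAG, bound by ETS factors, stood in 12.2%, against 20.1% and 8.86% in those sets. The NRF1 letters were in 4.09%, against 6.12% and 2.71%, and the YY1 letters in 1.35%, against 3.61% and 1.399%. The share with the NFY letters was 35.4%, against 39.9% and 37.4%. The TATA box letters TATAAA were in 7.29%, against 6.57% and 13.6%. For SP/KLF, ETS and NRF1 the DMC1-free set lay between the promoters with DMC1 and the whole table, and for YY1 it was next to the whole table. Some SP/KLF matches overlap one another, and a match is only a run of letters.

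The DMC1-free promoters were smaller, less marked and poorer in CpG than state 1 promoters that took DMC1 in Hells CKO. Their median width was 2388.5 bp, against 2974 bp in promoters with DMC1 in the Hells CKO list alone, 3222 bp with DMC1 in both lists and 3491 bp with a HELLS peak. A narrow region offers a peak less length to overlap, so the difference in width depends in part on the rule. Their median H3K4me3 over all libraries was 22.9 CPM (quartiles 10.4 and 39.2), against 49.0, 56.2 and 66.1 CPM in those classes. Per kb of region the medians were 8.62 CPM, against 15.7, 16.7 and 18.9 CPM, so the order was the same once width was divided out. DMC1-free promoters outside state 1 were lower still, at 4.61 CPM and 3.36 CPM per kb. State 1 was itself set from histone signal, so this last contrast is not independent of the rule. The CpG observed to expected ratio within 500 bp of the start had a median of 0.50 in the DMC1-free promoters, against 0.73, 0.77 and 0.82, and it exceeded 0.6 in 36.6% of them, against 74.0%, 78.4% and 94.4%. Divergent starts were found in 8.26% of the DMC1-free promoters, against 18.1%, 21.6% and 24.9%. The 202 promoters with DMC1 in the Hells het list alone did not share this pattern: the DMC1-free promoters, with the medians above, stood slightly above them in level (21.1 CPM, or 7.07 CPM per kb) and in CpG ratio (0.40, over 0.6 in 25.7%), and below them in width (2611.5 bp) and divergent starts (11.4%).

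Most members also lay in regions of the other assays: 98.2% overlapped an H3K9ac region, 88.7% an ATAC region of the Hells table and 90.7% one of the KI table, against 99.8%, 97.3% and 99.1% of promoters with DMC1 in the Hells CKO list alone. In DMC1-free promoters outside state 1 these shares were 68.8%, 47.2% and 51.8%. The labels tie B6 H3K9ac libraries to the chromHMM map, so the H3K9ac share of state 1 promoters depends in part on the rule. A protein-coding gene named 5059 of them, a lincRNA 436 and a pseudogene 313, and 4534 held the start of a protein-coding transcript. They lay on all 19 autosomes, where their share of the state 1 promoters was lowest on chromosome 18 (28.4%) and highest on chromosome 17 (56.4%). The nearest DMC1 peak was a median of 23450.5 bp away.

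The edges of the rule were described without a test. In 53 members a DMC1 peak came within 500 bp without touching, and their median was 19.7 CPM, close to the 18.4 CPM of the 47 state 1 promoters that a DMC1 peak overlapped by at most 500 bp. The 5959 members with no DMC1 peak within 2000 bp had a median of 23.2 CPM, against 48.9 CPM in the 5908 promoters overlapped by more than 500 bp. A start site lay inside the region in 5694 members (median 25.2 CPM) and outside it, within 1000 bp, in 538 members (7.32 CPM). The 627 state 1 regions with a start 1 to 2 kb away, which the rule left out, had 6.48 CPM.

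When state 1 promoters without a HELLS peak were divided into 10 equal bins by H3K4me3 level, the share free of DMC1 was lower at each step. It was 92.4% in the lowest bin (median 5.06 CPM), 80.2%, 70.1%, 64.9%, 55.2%, 46.7%, 32.3%, 28.8% and 21.3% in the bins between, and 19.4% in the highest (median 83.9 CPM). By 10 bins of the CpG ratio it was 84.0% in the lowest and 22.4% in the highest. By 10 bins of width it was 90.6% in the narrowest, 36.0% in bin 9 and 41.8% in the widest, bin 10. When 5 bins of width were each parted at their median H3K4me3, the lower part was more often free of DMC1: 92.5% against 73.6% in the narrowest bin, 70.3% against 41.5%, 59.2% against 22.8% and 54.4% against 19.0% in the next 3, and 54.5% against 23.4% in the widest.

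**Figure D1:**
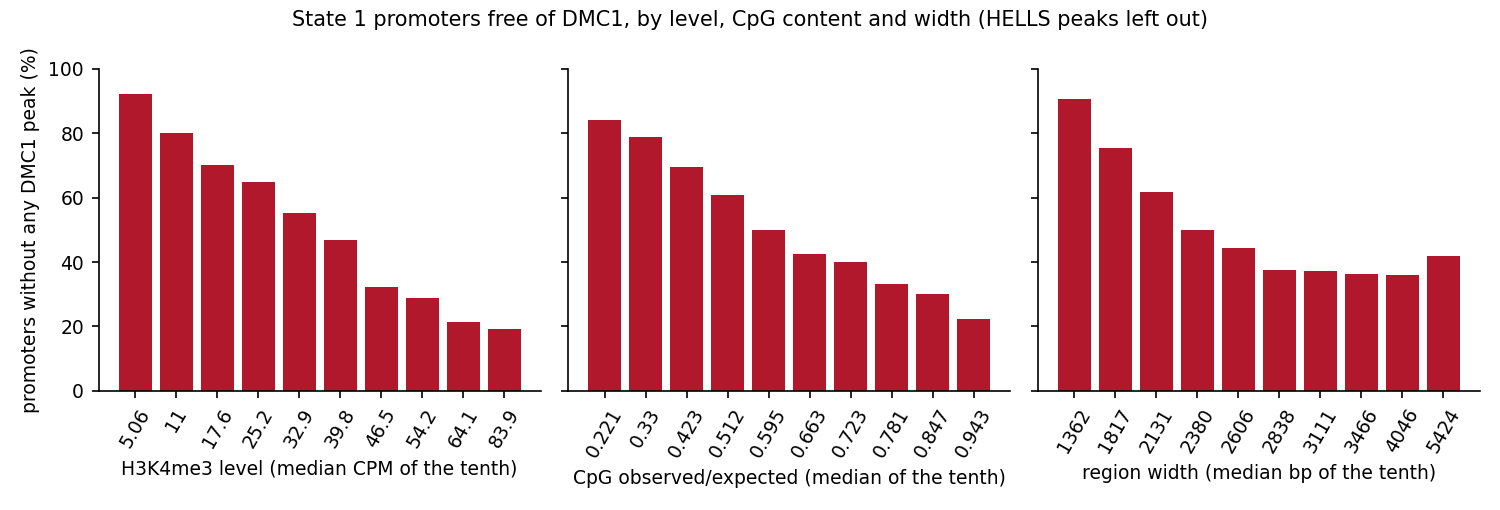
Share of state 1 promoters (HELLS peaks left out) with no DMC1 peak, in percent, by 10 equal bins of H3K4me3 CPM (left), of the CpG observed to expected ratio (middle) and of width in bp (right), each bar labelled with the median of its bin. The share is 92.4% in the lowest bin of H3K4me3 and 19.4% in the highest.

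Some members nonetheless ranked with the most strongly marked promoters. The highest means over the libraries were at Wt1 (149 CPM), a transcription factor gene of the Sertoli lineage, Hic1 (148 CPM), a transcriptional repressor, Phf12 (144 CPM), a subunit of a Sin3 corepressor complex, Tle3 (141 CPM), a Groucho-type corepressor, and Ptch1 (138 CPM), the Hedgehog receptor. Wt1 was also the widest, at 13272 bp, followed by Gata4 (12494 bp), Skor1 (10657 bp), Hic1 (10357 bp) and a region shared by Zadh2 and Tshz1 (10293 bp). At the other end Nek10 had a mean of 0.952 CPM, Gm15597 1.01 CPM, C1ra 1.04 CPM, Itih3 1.08 CPM and Gm38277 1.14 CPM. In the highest of the 10 bins 236 of 1219 promoters were free of DMC1.

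In every one of the 22 libraries the DMC1-free promoters had a lower median than promoters with DMC1 in the Hells CKO list alone. For the differences below, the DMC1-bearing class pooled these promoters with those that had DMC1 in both lists. For H3K4me3 the difference of median log2 CPM, DMC1-free minus DMC1-bearing, was −1.07 ± 0.20 in Hells CKO (SD, n = 3) and −1.16 ± 0.18 in HELLS-competent libraries (SD, n = 4), which did not differ beyond that spread (0.09, two-sided exact permutation test p = 0.686; the smallest p this design allows is 0.0571). For ATAC it was −0.84 ± 0.11 in Hells CKO (n = 3) and −0.94 ± 0.16 in Hells wt (n = 2; exact permutation p = 0.6, smallest 0.2), and −1.57 ± 0.048 in KI and −1.69 ± 0.15 in B6 (n = 2 each; exact permutation p = 0.667, smallest 0.333). For H3K9ac it was −1.36 ± 0.028 in KI (n = 2) and −1.03 ± 0.22 in B6 (n = 3), a difference of −0.33 that reached the smallest p the exact permutation test allows, 0.2. The lower level is a class feature already used above, and the 4 tests concern whether it changed with genotype; none of the 4 designs can reach 0.05, so a change is neither shown nor shown to be absent.

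**Figure D2:**
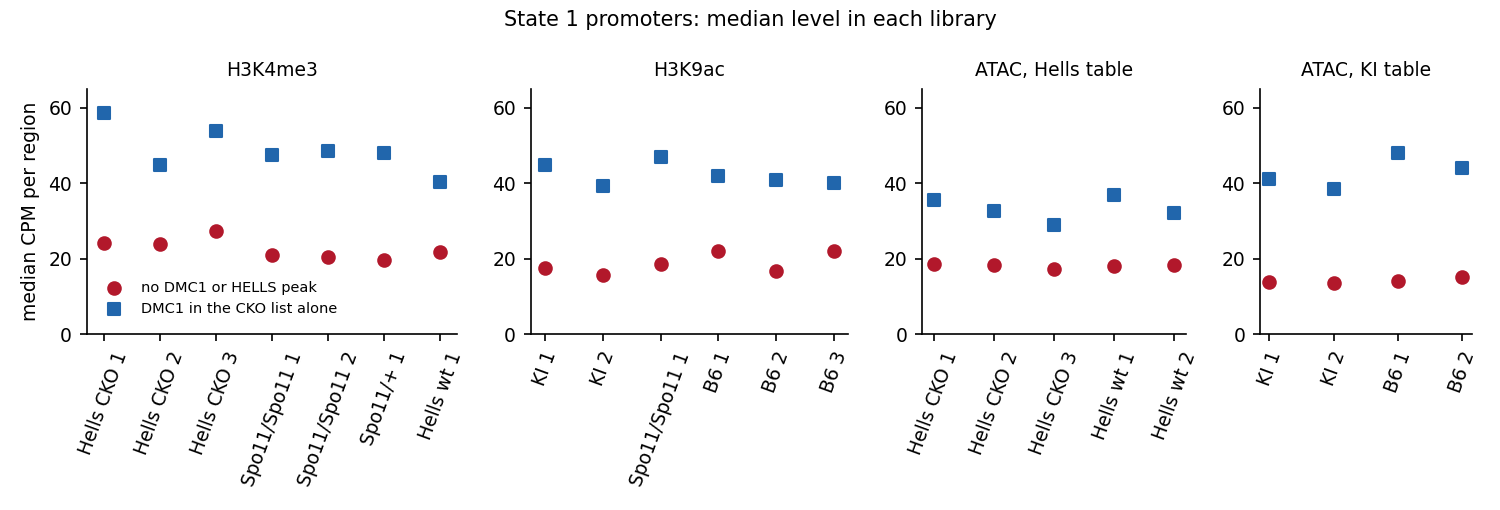
Median CPM per region (vertical axis) in each library (horizontal axis) for DMC1-free state 1 promoters (circles) and state 1 promoters with DMC1 in the Hells CKO list alone (squares), by assay. Circles sit below squares in all 22 libraries; the H3K4me3 circles lie between 19.7 and 27.4 CPM.

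By function, most genes used in every cell had a DMC1 or HELLS peak at their state 1 promoters. The DMC1-free promoters held 12 of 58 ribosomal protein promoters (20.7%), 2 of 26 for the proteasome (7.69%, Psma7 and Psmb2), 2 of 25 for the spliceosome (8%, the splicing factors Prpf19 and Eftud2), 6 of 35 for the mitochondrial respiratory chain (17.1%), 5 of 31 for RNA polymerase II and its general factors (16.1%) and 5 of 24 for DNA replication and the cell cycle (20.8%), against 47.0% of all state 1 promoters. The lists were chosen with earlier results of these data known, and the counts are descriptions. Each listed gene was counted at 1 region, the most strongly marked of its own. The 47.0% covers all state 1 promoter regions, strong and weak, so it differs in basis from the shares of the lists. Among meiotic prophase genes 3 of 37 were free of DMC1 (8.11%): Smc1b, the recombination mediator Brca2 and the mismatch repair gene Mlh3. Of genes for HELLS and DNA methylation 3 of 16 were (18.8%): the DNA methyltransferase gene Dnmt3b, its cofactor Dnmt3l, and Setdb1, an H3K9 methyltransferase gene. Of genes for H3K4 methylation and CpG island proteins 5 of 23 were (21.7%), including Wdr5, Rbbp5 and Men1, subunits of H3K4 methyltransferase complexes. Wdr5 was also the 1 of 7 for the PRC1.6 and germline repression list (14.3%). Prdm9, Spo11 and Dmc1 themselves had DMC1 in the Hells CKO list, and Hells in both lists, so none of these is a member.

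Other lists of germ cell genes gave shares nearer to the 47.0% of all state 1 promoters, with the same difference in basis and no test. The spermatogonial list had 6 of 16 (37.5%), among them Zbtb16, a factor of undifferentiated spermatogonia, Kit, the receptor of differentiating ones, and Sohlh1, a factor of their differentiation. The piRNA list had 4 of 8 (50%: the PIWI gene Piwil1, the Tudor gene Tdrd7, the methyltransferase gene Henmt1 and Gtsf1), and the pachytene and spermatid list 3 of 10 (30%: Ldhc, Hspa1l and Izumo1). As levels per region, Smc1b averaged 41.9 CPM, Brca2 40.8 CPM, Tdrd7 41.7 CPM and Piwil1 11.3 CPM.

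Markers of cell types were counted in the same way. All 6 germ cell markers (Ddx4, Dazl, Mael, Sycp3, Stra8 and Dmrt1) had a state 1 promoter with DMC1 or HELLS, so 0 of 6 were free of them. Of 12 markers of Sertoli cells, the somatic cells that nurse germ cells in the seminiferous tubule, 10 of 12 were DMC1-free (83.3%): Wt1, Gata4, Amh, Amhr2, Inha, Inhbb, Cldn11, Clu, Fshr and Dhh, while Sox9 and Nr5a1 had DMC1 in the Hells CKO list. Of 11 peritubular, stromal and endothelial markers 9 were in state 1 and 5 of those were DMC1-free (55.6%: Col1a1, Pecam1, Cdh5, Kdr and Vwf). No Leydig or blood marker had a state 1 promoter; 4 of 7 Leydig markers (Cyp11a1, Cyp17a1, Hsd3b1 and Hsd3b6) and 7 of 8 blood and macrophage markers had no region in the table. The germ cell preparations carried H3K4me3 at Sertoli genes, summed over the 12 markers to 633 to 1280 CPM, beside 228 to 314 CPM over the 6 germ cell markers. Its part in the membership of the somatic genes was not tested.

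The first comparison asked how the DMC1-free promoters behave without HELLS, with Hells CKO set against the mean of the 3 HELLS-competent groups. With edgeR's quasi-likelihood test and Benjamini-Hochberg adjustment over all 78959 regions tested, 512 of 6232 rose in Hells CKO (8.22%, where 2.29% of all regions were called higher) and 18 fell (0.289%, where 16.6% of all regions were called lower). The median log2 fold change of the members was 0.25 (quartiles 0.11 and 0.40), against 0.09 over all regions. A change of scaling moved the median of all regions, to −0.03 with library size alone, but the members stood 0.15 above it with TMM and with library size, and 0.16 with relative log expression. Single libraries moved this distance more than the scaling did: it was 0.085 without Hells CKO replicate 3 and 0.25 without Hells CKO replicate 1. Calls of a rise were rarer in the other classes: 1.19% of promoters with DMC1 in the Hells CKO list alone, 0.254% with DMC1 in both lists, 0.558% with a HELLS peak and 3.78% of DMC1-free promoters outside state 1. Their medians were 0.21, 0.19, 0.21 and 0.19 and that of all regions 0.09. Calls of a fall were also rare with DMC1 in the Hells CKO list alone (0.0933%) and with a HELLS peak (0.0930%). They were 2.79% with DMC1 in both lists and 2.08% of DMC1-free promoters outside state 1. In promoters with DMC1 in the Hells het list alone they were 24.8%. The rule leaves out that list, so the share of falls among the members depends on the rule itself. The quartiles of the members (0.11 and 0.40) lay wider apart than those of promoters with DMC1 in the Hells CKO list alone (0.13 and 0.28).

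The number of rises depended on single libraries. It was 41 without Hells CKO replicate 3, 100 without the Spo11/+ library, 179 and 225 without Spo11/Spo11 replicate 1 and 2, 1442 without Hells CKO replicate 2 and 2170 without Hells CKO replicate 1, the library that stood apart. Falls were 2, 4, 4 and 7 without Spo11/Spo11 replicate 1, Spo11/Spo11 replicate 2, Hells CKO replicate 3 and the Spo11/+ library, and 152 without Hells CKO replicate 1. The member median stayed between 0.20 and 0.32 in all 7 of these fits. DESeq2 called 1113 higher and 11 lower. By library codes in the labels 1 batch holds a library of both Hells genotypes, and within it the member median of Hells CKO minus Hells wt was 0.127 (1 library each, no test), against −0.0164 over all regions.

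Among the members, rises were commonest at the better marked promoters. By 4 equal bins of H3K4me3 level from low to high, 57, 107, 182 and 166 of 1558 were called higher, and 12, 6, 0 and 0 lower. Members called higher had a median width of 3116.5 bp, 30.5 CPM and a CpG ratio of 0.56, and 90.2% were named by a protein-coding gene. The 18 called lower had 1839 bp, 8.27 CPM and a CpG ratio of 0.25, with 55.6% protein-coding, and the 5702 not called had 2339 bp, 21.9 CPM, 0.49 and 80.4%. A higher level also gives the test more counts, so these shares are a description.

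**Figure D3:**
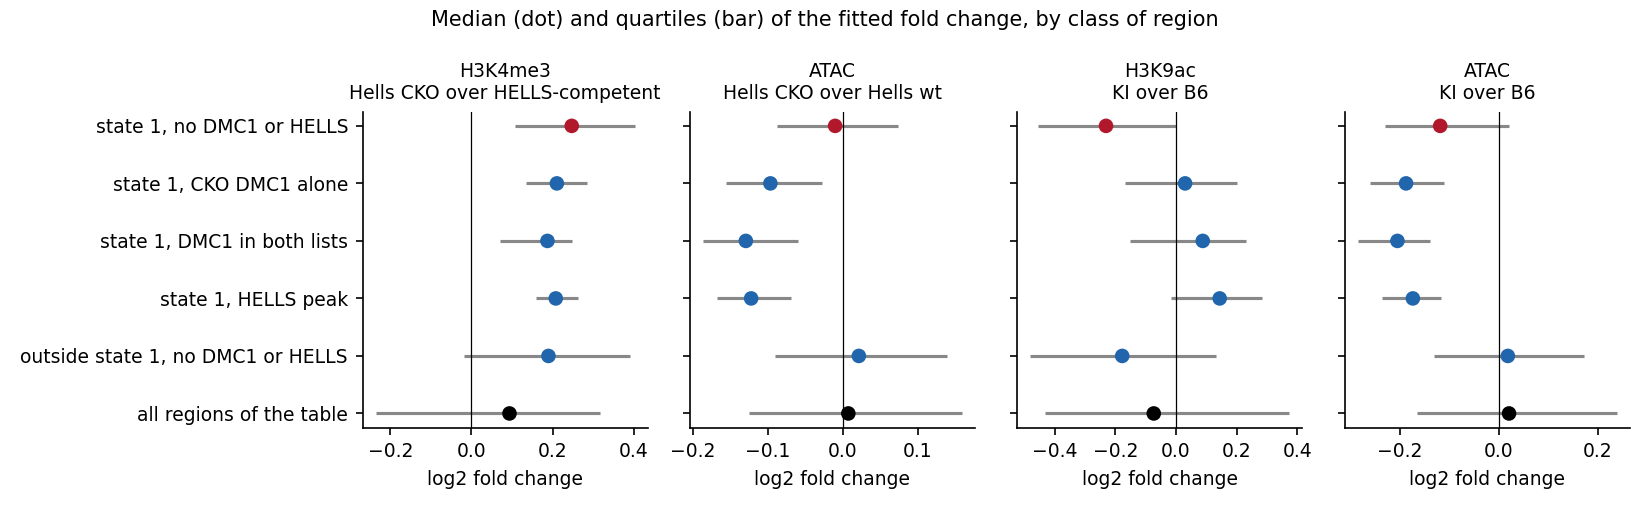
Median (dot) and quartiles (bar) of the fitted log2 fold change, horizontal axis, for DMC1-free state 1 promoters (top row), other promoter classes and all regions, in 4 comparisons. In the H3K4me3 panel the DMC1-free median is 0.25, against 0.09 over all regions; in the H3K9ac panel it is −0.23, against −0.07.

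The promoter ranked first among the rises was Hsd17b3, the gene of the enzyme that completes testosterone synthesis, whose CpG-poor sequence is given above. It had 9.17, 7.22 and 13.0 CPM in Hells CKO, against 3.46 and 4.20 CPM in Spo11/Spo11, 3.06 CPM in Spo11/+ and 5.67 CPM in Hells wt, a log2 fold change of 1.28 ± 0.23 (SE; edgeR adjusted p = 0.0016). The groups did not overlap, and the call was kept in all 11 alternative fits. Amhr2, the receptor for anti-Müllerian hormone, had 32.4, 26.99 and 47.3 CPM in Hells CKO, against 18.4, 19.999, 15.8 and 18.85 CPM in the HELLS-competent libraries (Spo11/Spo11 first, then Spo11/+ and Hells wt), a log2 fold change of 0.99 ± 0.20 (SE; edgeR adjusted p = 0.0029). Here too every Hells CKO library was above every HELLS-competent one, and the call was kept in all 11 alternatives.

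Further down the ranking came Slc16a10, an aromatic amino acid transporter (log2 fold change 1.15), Slc41a3, of a magnesium transporter family (1.00), the microRNA gene mmu-mir-7686 (0.98), Pik3r1, the regulatory subunit of PI3 kinase (1.18), Parp10, a mono-ADP-ribosyltransferase (0.93), the kinase gene Taok3 (0.95), the microRNA gene Mir759 (0.90) and Rtp4, an interferon-induced receptor chaperone (0.83), all with edgeR adjusted p between 0.0025 and 0.0051. Pik3r1 was among the low ones, with 4.45, 3.46 and 4.77 CPM in Hells CKO, against 1.99, 1.93, 1.33 and 2.48 CPM in the HELLS-competent libraries. The groups of Pik3r1 did not overlap.

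Of the 18 falls, A930027H12Rik ranked first, with 3.45, 4.13 and 3.15 CPM in Hells CKO, against 7.56, 6.26, 8.55 and 7.37 CPM in the HELLS-competent libraries, a log2 fold change of −1.09 ± 0.20 (SE; edgeR adjusted p = 0.0017). The Hells CKO libraries of A930027H12Rik all lay below the others. Lower in the ranking were Th (tyrosine hydroxylase), Nfasc (neurofascin), the odorant receptor gene Olfr316, Gm2762, Gm44243, 4930568G15Rik, Plekhg5 and Vgf (a neuropeptide precursor), with log2 fold changes of −0.53 to −0.71 and edgeR adjusted p of 0.016 to 0.036. These 8 calls were lost when single libraries were left out, Th without Spo11/Spo11 replicate 1 or Hells CKO replicate 3, and the other 7 under 4 or 5 of 11 alternatives, which left out a Spo11/Spo11 library, the Spo11/+ library or Hells CKO replicate 2 or 3.

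Among the listed genes most calls were of Sertoli genes. Of the 10 DMC1-free Sertoli promoters 6 rose in Hells CKO (Amhr2, Inha, Inhbb, Cldn11, Clu and Dhh) and none fell, against 8.22% of all members, and the median log2 fold change of the 10 was 0.66. Inha, the alpha subunit of inhibin, had 101.2, 93.3 and 139 CPM in Hells CKO, against 76.1, 76.4, 60.02 and 80.8 CPM in the HELLS-competent libraries (log2 fold change 0.63 ± 0.18, SE; edgeR adjusted p = 0.027). Dhh, the Hedgehog ligand of Sertoli cells, had 76.7, 69.4 and 102.5 CPM in Hells CKO, against 52.1, 52.5, 43.9 and 64.3 CPM in the HELLS-competent libraries (0.65 ± 0.17; edgeR adjusted p = 0.019). In both genes the groups did not overlap. Inhbb, the beta B subunit of inhibin and activin, gave 0.67 ± 0.19 (edgeR adjusted p = 0.029), Cldn11, a claudin of the blood-testis barrier, 0.74 ± 0.22 (0.035) and Clu, the secreted chaperone clusterin, 0.70 ± 0.21 (0.039), where the lowest Hells CKO library of Cldn11 and of Clu lay below the highest HELLS-competent one.

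The other 4 did not pass the threshold: Wt1 (log2 fold change 0.50, edgeR adjusted p = 0.084), Gata4 (0.52, 0.056), Amh (0.47, 0.139) and Fshr, the receptor for follicle-stimulating hormone (0.68, 0.0502). For Wt1 the values were 197, 139 and 197 CPM in Hells CKO, against 127, 134, 112 and 136 CPM in the HELLS-competent libraries. Apart from Amhr2, each of the 6 calls was lost under 2 to 4 of 11 alternatives, always including the fits without the Spo11/+ library and without Hells CKO replicate 3. Sox9 and Nr5a1, the Sertoli markers that take DMC1 and so are not members, were also called higher (0.60, edgeR adjusted p = 0.039 and 0.53, 0.035), which makes 8 of 12 for the whole list.

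**Figure D4:**
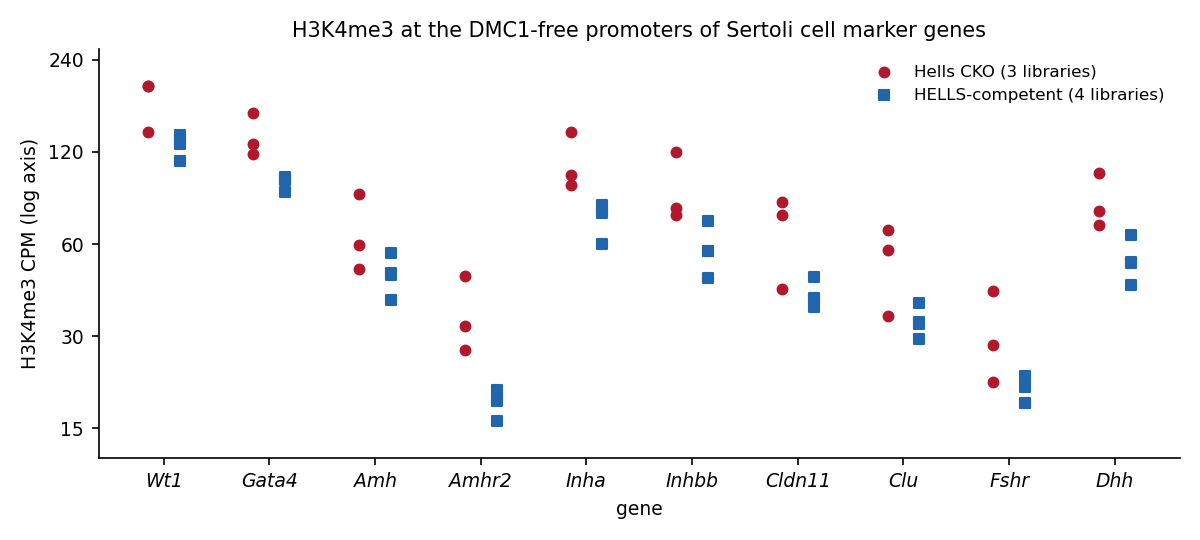
H3K4me3 in CPM (vertical log axis) at the 10 DMC1-free promoters of Sertoli cell markers, one point per library, Hells CKO (circles, 3 libraries) left of HELLS-competent (squares, 4 libraries). For Amhr2 the circles lie between 26.99 and 47.3 CPM and the squares between 15.8 and 19.999 CPM.

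The summed H3K4me3 of the 12 Sertoli markers moved with the comparison. It was 1096, 876 and 1280 CPM in Hells CKO, against 730, 756, 633 and 788 CPM in the HELLS-competent libraries, with no overlap. The 6 germ cell markers summed to 314, 246 and 228 CPM in Hells CKO, against 287, 296, 303 and 230 CPM in the HELLS-competent libraries, which overlapped, and none of the 6 passed the threshold (edgeR adjusted p from 0.146 to 0.981). The 11 peritubular, stromal and endothelial markers summed to 318 to 359 CPM in Hells CKO, against 285 to 297 CPM in the HELLS-competent libraries, with no overlap, and none of the 11 passed (edgeR adjusted p from 0.070 to 0.957). The 3 Leydig markers with a region summed to 9.49 to 19.9 CPM in Hells CKO, against 9.77 to 17.5 CPM in the HELLS-competent libraries, and Ptprc, the 1 blood marker with a region, had 1.65 to 1.91 CPM in Hells CKO, against 1.37 to 2.48 CPM in the HELLS-competent libraries. The part of cell makeup in the 512 rises and in those of the Sertoli genes was not tested. In ATAC the Sertoli sum was 535 to 627 CPM in Hells CKO, against 546 to 601 CPM in Hells wt, which overlapped.

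In the other lists few members moved. Ccnd2, cyclin D2 of the spermatogonial list, rose (137, 126 and 182 CPM in Hells CKO, against 103, 99.2, 90.8 and 102.2 CPM in the HELLS-competent libraries; 0.60, edgeR adjusted p = 0.036), a call lost under 4 of 11 alternatives. It was the only call among 6 spermatogonial members, whose median was 0.21. No member of the ribosomal protein (12), respiratory chain (6), RNA polymerase II (5), H3K4 methylation (5), replication (5), piRNA (4), meiotic (3), DNA methylation (3), pachytene and spermatid (3), proteasome (2), spliceosome (2) or PRC1.6 (1) list was called. Their medians lay between −0.24 for the piRNA genes and 0.38 for the proteasome genes. The piRNA genes Piwil1 (−0.39) and Gtsf1 (−0.46) had edgeR adjusted p of 0.134 and 0.135.

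Against the single Hells wt library alone, 5 DMC1-free promoters were called higher in Hells CKO (0.0802%, against 0.0279% of all regions) and 2 lower (0.0321%, against 11.7% of all regions), with a median of 0.21. This comparison shares its Hells CKO and Hells wt libraries with the one above, and it rests on 1 library for Hells wt, whose spread is taken from the other H3K4me3 groups. The higher ones were Ppp2r5c, a regulatory subunit of protein phosphatase 2A, Vgll4, a cofactor of TEAD, Ghdc, Fmo4, a flavin monooxygenase, and Gm21451, and the lower ones A930027H12Rik and Gm11670. Ppp2r5c had 55.3, 32.3 and 54.7 CPM in Hells CKO, against 20.9 CPM in Hells wt (1.18 ± 0.32, SE; edgeR adjusted p = 0.032). Gm21451, a pseudogene with close copies whose counts are uncertain, had 24.7, 23.5 and 28.1 CPM in Hells CKO, against 13.2 CPM in Hells wt, but 28.7 to 31.8 CPM in the Spo11 libraries. The member median of 0.21 lay below that of promoters with DMC1 in the Hells CKO list alone (0.37), in both lists (0.37) or with a HELLS peak (0.39). It lay above that of DMC1-free promoters outside state 1 (−0.01). Promoters with DMC1 in the Hells het list alone, which the rule leaves out, had −0.05. The all-region median was −0.02 with TMM, 0.09 with relative log expression and −0.17 with library size, and the members stood 0.23 above it each time. The calls were 26 higher and 0 lower with relative log expression and 3 and 4 with library size. Without Hells CKO replicate 1, 2 and 3 the higher calls were 110, 547 and 1.

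The comparison of Spo11 genotypes gave no call among these promoters. In Spo11/Spo11 against Spo11/+ the edgeR test called 0 of 6232 higher and 0 lower, as over all regions (0% each way), 3 members had an unadjusted p under 0.05, and DESeq2 called 0. The member median was 0.06, against −0.02 over all regions. It sets 2 libraries against 1.

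Accessibility was compared in the ATAC table of the Hells mice, where 6038 regions matched the DMC1-free promoters. In Hells CKO against Hells wt the edgeR test called 0 higher (0% of all regions were) and 0 lower (0.382% of all regions were), with 1 unadjusted p under 0.05, and DESeq2 called 0. The member median was −0.01, against 0.01 over all regions, and it lay from 0.095 below to 0.039 above that of all regions as single libraries were left out. In promoters with DMC1 in the Hells CKO list alone the median was −0.10, and there too 0 were called higher and 0 lower. Within the 2 batches that hold both genotypes the member medians were 0.0310 and 0.0124, and with batch as a term 0 were higher and 1 lower.

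The second main comparison, KI against B6, asked what a different Prdm9 allele does to these promoters. Of the ATAC regions 6357 matched DMC1-free promoters; the edgeR test called 17 higher in KI (0.267%, against 7.14% of all regions) and 15 lower (0.236%, against 2.27%). Of the H3K9ac regions 6025 matched; 43 were called higher in KI (0.714%, against 12.1% of all regions) and 2 lower (0.0332%, against 0.208%). The share called was below the background in each direction and assay in these fits, and for the falls this turned with single B6 libraries, as given in the next paragraph. The other promoter classes had low shares of rises too. By H3K9ac they were 0.390% with DMC1 in the Hells CKO list alone, 0% in both lists and 1.39% with a HELLS peak. DMC1-free promoters outside state 1 had 1.87%. By ATAC the shares, in this order, were 0.0864%, 0%, 1.41% and 0.723%. The HELLS list came from KI testis and the rule leaves it out. The share of rises among the members therefore depends in part on the rule itself. Falls were 0% to 1.75% by H3K9ac and 0% to 1.66% by ATAC in these classes. With DMC1 in the Hells het list alone, which the rule leaves out, they were 9.375% and 9.43%. The median log2 fold change of the members was −0.12 for ATAC, against 0.02 over all regions, and −0.23 for H3K9ac, against −0.07 over all regions. By ATAC the other state 1 classes lay lower still. Their medians were −0.19 with DMC1 in the Hells CKO list alone, −0.21 in both lists, −0.17 with a HELLS peak and −0.22 in the Hells het list alone. By H3K9ac these classes had 0.03, 0.09, 0.14 and −0.45. DMC1-free promoters outside state 1 had 0.02 by ATAC and −0.18 by H3K9ac. For H3K9ac the all-region median was −0.22 with library size alone, and the members stood 0.16 below it with either scaling. That distance depended on single libraries: it was 0.30 without B6 replicate 2, 0.23 without KI replicate 1, 0.11 without B6 replicate 1 or 3 and 0.085 without KI replicate 2, with member medians of −0.35 to −0.15. By their labels the KI and B6 libraries of both assays carry library codes that follow the strain, so batch and genotype cannot be told apart. Summed marker levels moved with this comparison in some lists. By H3K9ac the 6 germ cell markers summed to 250.3 to 254 CPM in KI, against 201 to 230.0 CPM in B6, with no overlap, while the sums of Sertoli (564 to 765 CPM in KI, against 628 to 837 CPM in B6), peritubular, stromal and endothelial (222 to 228 CPM, against 207 to 290.3 CPM) and Leydig markers (2 with a region, 16.2 to 17.7 CPM, against 15.7 to 29.7 CPM) overlapped. By ATAC the 9 peritubular, stromal and endothelial markers with a region summed to 194 to 197 CPM in KI, against 213 to 223 CPM in B6, with no overlap, while those of germ cells (319.8 to 350.3 CPM, against 320.5 to 440.3 CPM), Sertoli cells (329.9 to 347 CPM, against 323 to 384 CPM) and Leydig cells (1 with a region, 10.5 to 10.9 CPM, against 9.07 to 11.8 CPM) overlapped. No blood marker had a region in either table. None of the markers tested passed the threshold in either assay (edgeR adjusted p of at least 0.100), and the part of cell makeup in the KI values was not tested. The labels also tie 2 of the 3 B6 H3K9ac libraries to the chromHMM map that chose the members. The H3K9ac median of the members in KI against B6 is therefore not independent of the rule.

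The split of these calls moved with the processing. For ATAC it was 11 higher and 20 lower with relative log expression, 17 and 7 with library size alone, and 11 and 23 with DESeq2. For H3K9ac it was 29 and 19 with library size alone and 60 and 39 with DESeq2. Leaving out B6 replicate 1 or 2 gave 232 and 114 higher by ATAC with 1045 and 954 lower, and leaving out either KI library gave 8 higher and 0 lower. Without B6 replicate 1 the ATAC falls were 16.4% of the members, against 10.3% of all regions, and without B6 replicate 2 they were 15.01%, against 9.51%, so the members were then called lower more often than the background. The rises stayed below it in both (3.65%, against 12.7%, and 1.79%, against 10.6%). For H3K9ac, leaving out B6 replicate 2, which stood apart, gave 507 higher and 2927 lower, leaving out B6 replicate 1 or 3 gave 18 and 10 higher and 0 lower, and leaving out either KI library gave 0 and 0, so each H3K9ac call named below was lost without a KI library. Without B6 replicate 2 the H3K9ac falls were 48.6% of the members, against 26.8% of all regions, and the rises 8.41%, against 28.7%.

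The promoter ranked first in both assays was Cpne7, the gene of a calcium-dependent phospholipid-binding copine. Its ATAC values were 28.8 and 27.6 CPM in KI, against 3.52 and 3.10 CPM in B6 (log2 fold change 3.09 ± 0.18, SE; edgeR adjusted p = 3.42e-07). Its H3K9ac values were 49.0 and 51.5 CPM in KI, against 10.2, 9.004 and 10.9 CPM in B6 (2.32 ± 0.15; edgeR adjusted p = 0.0045), with Spo11/Spo11 at 12.1 CPM. The groups were far apart in both. Nearest to Cpne7 in rank by ATAC were Ano1, a calcium-activated chloride channel (44.7 and 35.7 CPM in KI, against 11.4 and 14.2 CPM in B6; 1.65), and Mir34a, a microRNA gene induced by p53 (26.9 and 23.15 CPM in KI, against 9.27 and 8.37 CPM in B6; 1.503). Their groups did not overlap either.

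The remaining ATAC rises named by rank were Dnajb7, an Hsp40 co-chaperone (log2 fold change 2.60), AA543401 (1.22), Cyp1a2, a cytochrome P450 (1.84), Stat6, the interleukin-4 signal transducer (1.02), Mrpl3, a mitochondrial ribosomal protein (1.68), Etv4, an ETS factor (0.93), and Kdelr3, a retention receptor of the endoplasmic reticulum (0.71). The falls were shallower, with 10 named by rank from −0.74 at Plekhg5 to −0.51 at Prkcb, among them Ccnd3, cyclin D3 (31.7 and 31.6 CPM in KI, against 50.02 and 45.5 CPM in B6; −0.59), and Rgs19, a regulator of G protein signalling (64.3 and 49.1 CPM in KI, against 83.1 and 102.1 CPM in B6; −0.71). Each of the 10 falls was lost when either KI library was left out, as was the rise of Kdelr3; that of Stat6 was lost without KI replicate 1 and that of Etv4 without KI replicate 2.

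By H3K9ac the rises after Cpne7 were Nr3c2, the mineralocorticoid receptor, Pfkfb4, a regulator of glycolysis, Gm7802, AA543401, Dnajb7, A430010J10Rik, Mir34a, Mgll, the monoacylglycerol lipase, and Gm15597. Nr3c2 had 53.4 and 69.4 CPM in KI, against 5.74, 8.19 and 5.58 CPM in B6 (3.25 ± 0.24, SE; edgeR adjusted p = 0.0046), and 7.72 CPM in Spo11/Spo11. Pfkfb4 had 128 and 130 CPM in KI, against 44.6, 41.4 and 49.0 CPM in B6 (1.52 ± 0.11; edgeR adjusted p = 0.0048). The groups were apart in each. Gm15597 gave 71.4 and 74.1 CPM in KI, against 16.7, 11.4 and 18.1 CPM in B6 (2.24), over an H3K9ac region of chr17:27965900-27971756 that reaches well beyond the narrow H3K4me3 region, one of the lowest of all members. The 2 falls were Hmga1b, a near copy of Hmga1 whose counts are uncertain (−0.82), and Mdga1 (−0.98). Between the assays 7 promoters rose in both, which was 41.2% of the ATAC rises and 16.3% of the H3K9ac rises. The same overlap was not counted over all regions, so whether these shares are particular to the members is not known.

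H3K9ac in Spo11/Spo11 against B6 gave 0 called higher and 0 lower among 6025 by edgeR (0% of all regions each way), 232 unadjusted p under 0.05, and 1 higher and 0 lower by DESeq2. The median was −0.08, against 0.01 over all regions, and this difference was not kept without B6 replicate 1 (−0.029, against −0.034 over all regions) or B6 replicate 3 (−0.026, against −0.029). Without B6 replicate 2 it gave 323 higher and 1169 lower, with a median of −0.15, against 0.074 over all regions. It shares the B6 libraries with the KI comparison and has 1 library of Spo11/Spo11.

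The F1 hybrid holds both genomes in 1 nucleus and shares no library with the comparisons above. By ATAC 150 of 5830 DMC1-free regions tested were higher on the CAST allele (2.57%, against 5.53% of all regions) and 226 on the B6 allele (3.88%, against 8.22%), with a median log2 CAST over B6 ratio of −0.03. On the autosomes alone, where all members lie, the background was 5.63% and 6.48%, and the shares of members were lower than these. When the allele totals were scaled to each other the calls were 270 higher and 234 lower on CAST. For H3K9ac, with 1 library and no test, 103 of 5454 regions were at least 2-fold higher on CAST (8.93% of all regions were) and 267 on B6 (12.2% of all regions were). This H3K9ac background also holds regions off the autosomes, and its value on the autosomes alone was not computed. Of the 150 regions with more ATAC on CAST 140 had H3K9ac counts, with 101 higher on CAST and 38 on B6, and of the 226 with more on B6 215 had counts, with 29 higher on CAST and 180 on B6.

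Rgs19 ranked first, with 664 and 495 ATAC counts on the CAST allele, against 77 and 40 on the B6 allele (log2 ratio 3.32 ± 0.13, SE; edgeR adjusted p = 1.64e-12), and 208 H3K9ac counts on CAST, against 15 on B6. Mtg1, a GTPase of the mitochondrial ribosome, had 792 and 764 counts on CAST, against 291 and 323 on B6 (1.34), while its H3K9ac was 157 on CAST, against 194 on B6. Both assays gave the same direction at Rgs19 and not at Mtg1. Crygb, a lens crystallin gene (2.31), Peg13, an imprinted non-coding gene (1.48), Mcrip1 (3.76), Riiad1 (2.67), Gm8203 (3.64) and Gm49618 (1.44) were also higher on CAST. Zfp960 and Lipo3, members of multigene families, were called too (1.31 and 1.73), and their allele counts are uncertain. The H3K9ac counts leaned the other way at Mcrip1 (8 on CAST, against 14 on B6) and Riiad1 (14, against 21). They leaned to CAST at Crygb, Peg13 and Gm49618. The labels name a single cross, so parent of origin and strain cannot be told apart at Peg13.

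On the B6 side Gm26901 ranked first, with 1026 and 946 ATAC counts on CAST, against 1840 and 1697 on B6 (−0.84 ± 0.06, SE; edgeR adjusted p = 4.64e-09). Gm23287 (−2.17), Gm10193 (−4.61), E430024I08Rik (−1.23), Ube2u (−1.17) and Lrp6, a Wnt co-receptor (−2.10), followed the same direction by ATAC. Among these, H3K9ac leaned the other way only at Ube2u (70 counts on CAST, against 58 on B6). The region of 5730507C01Rik had 0 counts on CAST, against 137 on B6 over both libraries, at least 45.7-fold lower on CAST against a floor of 3 counts over both libraries. Its counts, those of Entpd4b (−0.94) and those of the pseudogene Rpl27-ps1 (1 count on CAST, against 100 on B6) are uncertain because near-identical copies can share reads. Among the listed genes Setdb1 (0.81) and Brca2 (0.33) were higher on CAST, and the ribosomal gene Rpsa (−0.50) and Polr2j, an RNA polymerase II subunit (−0.44), were lower.

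The F1 and the KI comparison can be set side by side at the 53 promoters that rose in KI by either assay, of which 51 were tested in the F1. By ATAC 13 of the 51 were higher on the B6 allele (3.88% of all member regions were) and 0 on the CAST allele (2.57% of all member regions were). Each of the 51 was taken at its F1 region with the lowest p, a choice not made for the shares of all member regions. The shares therefore differ in basis. Mir34a had 48 and 37 counts on CAST, against 185 and 160 on B6 (−2.02 ± 0.19, SE; edgeR adjusted p = 2.5e-07), and its H3K9ac was 20 on CAST, against 127 on B6. Ano1 gave −2.12, Mgll −2.41, Etv4 −1.23, Dennd2c −1.16, Nudt1 −1.16 and Tspan2 −0.95, and Cpne7 −0.47 with edgeR adjusted p = 0.00403. These 13 promoters were thus higher by ATAC or H3K9ac in the B6 line with the CAST Prdm9 allele than in B6, and had more ATAC counts on the B6 than on the CAST allele of the hybrid. Dnajb7 (0.04) and Cyp1a2 (0.06) did not pass, with edgeR adjusted p of 0.934 and 0.931. Dennd2c, Nudt1 and Tspan2 come from no ranking above and were chosen after their values were seen. Rgs19 ran the opposite way, lower in KI and higher on the CAST allele.

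**Figure D5:**
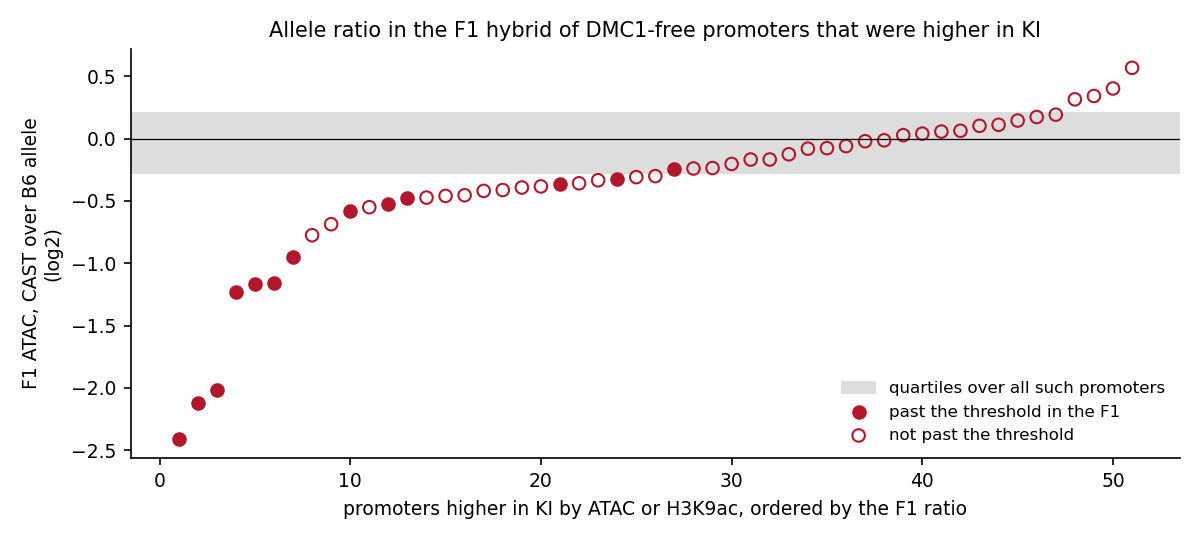
F1 ATAC log2 ratio of the CAST over the B6 allele (vertical axis) for the 51 DMC1-free promoters that were higher in KI, ordered by that ratio (horizontal axis). Filled points (13) passed the threshold in the F1 and all lie below 0, from Mgll at −2.41 to Dnajc14 at −0.25; the grey band gives the quartiles over all DMC1-free regions tested.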

How the data were processed

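The authors deposited raw read counts per region for H3K4me3, H3K9ac and ATAC, estimated counts per allele for the F1, peak lists without scores and a chromHMM map (a state per segment, other than a count), per the file headers. The submitters' processing notes name CASAVA, BWA 0.7.15, Bowtie 0.12.9, MACS 1.4.2 and mm10, without roles; how reads were counted, and whether peaks were called on pooled libraries, is not given in the sources used here. No sample could be matched to 10 deposited columns, which were left out, and 56 repeated ATAC regions of the Hells mice were dropped. The KI and B6 ATAC columns give only a strain.

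Members were found by overlap with GENCODE M21 starts. The members, gene lists and marker lists were chosen with earlier results of these data known. A region of another table was given to the H3K4me3 promoter it overlapped most. Tests used edgeR 4.0.16 in R 4.3.3 (filterByExpr, TMM, quasi-likelihood), with p adjusted by Benjamini-Hochberg over all regions tested and a threshold of 0.05. F1 estimated counts were rounded; regions with at least 20 allele counts were tested, with library as a block, and H3K9ac ratios used a pseudocount of 1. CPM use TMM factors, and the SE is the fold change over the square root of F. Exact permutation tests (scipy 1.17.1) compared library medians. Named regions are, per comparison, up to 10 called members with the lowest p in each direction, listed genes that were called, the first 3 member genes of each list, and the 5 highest, lowest and widest members; a few others are marked as chosen after their values were seen. A region that this rule names is not reported here. The H3K4me3 groups were fitted together, as were those of H3K9ac. On simulated data the fits returned the fold changes put in, and called few of them for H3K9ac. Alternatives were DESeq2 1.42.0, other scalings, filters, leaving out each library, batch, and narrower member rules. The rounding and allele assignment can move allele ratios, and shared reads can move counts of gene copies.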

Additional observations from a re-analysis of the deposited data

How the results depend on the processing

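Leaving out 1 library at a time moved most counts of calls; the member medians kept their sign, apart from ATAC in Hells CKO, which lay between −0.04 and 0.022 with no call. Higher and lower calls ranged from 41 to 2170 and 2 to 152 for H3K4me3 in Hells CKO against all HELLS-competent libraries, 1 to 547 and 1 to 14 against Hells wt, 0 to 507 and 0 to 2927 for H3K9ac in KI, 0 to 323 and 0 to 1169 for H3K9ac in Spo11/Spo11, and 8 to 232 and 0 to 1045 for ATAC in KI. Library size alone gave 273 higher, 30 lower and a median of 0.12 against all HELLS-competent libraries, 3, 4 and 0.055 against Hells wt, 19 lower for H3K9ac in KI, and 7 lower with a median of −0.056 for ATAC in KI. Relative log expression gave 26, 0 and 0.32 against Hells wt, 1 lower for H3K9ac in KI and 11 higher for ATAC in KI. DESeq2 gave 1113 higher and 11 lower against all HELLS-competent libraries, 269, 0 and 0.32 against Hells wt, 39 lower for H3K9ac in KI, 1 higher for H3K9ac in Spo11/Spo11, and 11 higher and 23 lower for ATAC in KI. Promoters of protein-coding transcripts alone held 6 falls against all HELLS-competent libraries, 0 against Hells wt, 23 rises and 1 fall for H3K9ac in KI, and 11 rises for ATAC in KI. Batch as a term gave 1 fall for ATAC in Hells CKO. In the F1, scaled allele totals gave 270 higher on CAST and a median of 0.032, and a pseudocount of 5 gave 63 H3K9ac regions past 2-fold on CAST. The cause of these moves was not tested, apart from the smaller set of promoters under the protein-coding rule. Of the alternative values of single named regions 1160 counted as unchanged. These were past the threshold in both fits with the same direction, or in neither with a shift smaller than the SE. A further 124 lost the threshold, 39 gained it, and 24 that passed in neither fit shifted by the SE or more. No paired analysis was possible because replicate numbers here follow the order of deposit and pair no libraries across groups; the batch fit of ATAC in Hells CKO blocks on library codes instead. H3K4me3 in Hells wt and Spo11/+, and H3K9ac in Spo11/Spo11 and the F1, rest on 1 library each. The peak lists hold no scores, so how the member set depends on the calling limit could not be examined.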
